A study of Mus musculus with 8 samples.

Results

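The cells described here were those of the mouse line SN4741 with the highest expression of 4 immediate-early genes, Fos, Junb, Egr1 and Ier2, after culture at 39 °C. They were chosen by this readout itself: in each of the 4 libraries at 39 °C, the cells with at least 5000 unique molecular identifiers (UMIs, counted cDNA molecules), 200 to 6000 detected genes and at most 15% of UMIs from mitochondrially encoded genes were ranked by the share of their UMIs that came from the 4 genes, and the 10% with the highest share were taken (IEG-high cells). This gave 811 of 8133 cells (94, 238, 231 and 248 in replicates 1 to 4), out of 19125 cells in the 8 libraries of the series. They were compared, within each library, with the 50% of cells that had the lowest share (IEG-low cells, 4065 in all), and the same ranking was applied to the 4 libraries at 37 °C (786 and 3940 of 7882 cells).

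The labels give SN4741 as a neural precursor line of WT genotype. Cells at 37 °C, the permissive temperature of the temperature-sensitive T antigen that immortalised the line, grew in 10% serum. Cells at 39 °C had been moved for 48 hours to medium with 0.5% serum, so temperature and serum changed together and cannot be told apart. All cells were trypsinised before capture. Nothing in the sources used here ties the replicates to separate thaws or passages. The spread between these libraries may therefore be technical. In the tests of genes below, the SE and p rest mainly on a spread estimated over all genes, and little on that of the single gene. The SE was computed back from the log2 fold change and the test statistic. They can understate the spread of a single gene between libraries, so the level in each library is given for many genes.

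After filtering, libraries at 39 °C held 949 to 2485 cells and 17055269 to 27255882 UMIs. At most 5 cell barcodes were shared by any of the 28 pairs of libraries. Of the neural precursor markers, Nes, Vim and Sox2 were detected, while Pax6, Msi1, Hes5 and Fabp7 had no UMI in IEG-high cells. Among markers of other cell types, 5 of 10 immune, 5 of 8 endothelial and 7 of 12 oligodendrocyte and astrocyte genes had no UMI in IEG-high cells of any library (among them Ptprc, Cdh5, Gfap and Sox10). The summed level of each of these lists was low in both groups (counts per 1000000 UMIs, CPM, were 21.4 to 31.3 for the immune list in IEG-high and 30.9 to 41.0 in IEG-low cells).

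Immediate-early genes are transcribed within minutes of a stimulus such as serum, growth factors or stress, from transcription factors already present in the cell (SRF with its ternary complex partners, and CREB). Fos and Junb encode subunits of the AP-1 transcription factor, Egr1 a zinc-finger transcription factor and Ier2 a small nuclear protein. Their mRNAs decay quickly, and many of the genes they are induced with, such as Zfp36 and the Dusp phosphatases, act to end the response.

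Stretches before the RefSeq start sites of 5 of these genes are shown because they carry short elements through which CREB and SRF are known to act, and that of Btg2 because it holds neither element in the printed stretch although Btg2 was among the 12 largest rises. Each is printed 5′ to 3′ on the strand of the gene, from 150 bases before the start up to the start, in GRCm38.p6. Capitals mark the short cAMP response element (TGACG, or CGTCA on the other strand) and, in Zfp36, the CArG box to which SRF binds. Fos lies at chr12:85473740-85473889 (+), Junb at chr8:84978749-84978898 (-), Nr4a1 at chr15:101266696-101266845 (+), Zfp36 at chr7:28379229-28379378 (-), Areg at chr5:91139449-91139598 (+) and Btg2 at chr1:134079156-134079305 (-).
Fos: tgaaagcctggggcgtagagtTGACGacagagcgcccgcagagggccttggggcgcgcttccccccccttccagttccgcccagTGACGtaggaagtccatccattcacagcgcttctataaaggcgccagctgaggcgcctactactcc
Junb: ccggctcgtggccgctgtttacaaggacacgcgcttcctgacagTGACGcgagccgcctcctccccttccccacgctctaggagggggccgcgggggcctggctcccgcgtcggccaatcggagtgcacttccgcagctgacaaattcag
Nr4a1: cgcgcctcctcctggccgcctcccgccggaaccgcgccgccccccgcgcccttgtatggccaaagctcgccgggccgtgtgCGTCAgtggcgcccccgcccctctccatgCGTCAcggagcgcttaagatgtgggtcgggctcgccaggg
Zfp36: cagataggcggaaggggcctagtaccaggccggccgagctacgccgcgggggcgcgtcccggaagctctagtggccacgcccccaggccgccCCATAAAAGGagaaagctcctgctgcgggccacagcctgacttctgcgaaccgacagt
Areg: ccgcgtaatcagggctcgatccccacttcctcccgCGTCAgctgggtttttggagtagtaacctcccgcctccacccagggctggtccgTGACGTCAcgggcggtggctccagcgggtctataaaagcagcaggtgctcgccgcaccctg
Btg2: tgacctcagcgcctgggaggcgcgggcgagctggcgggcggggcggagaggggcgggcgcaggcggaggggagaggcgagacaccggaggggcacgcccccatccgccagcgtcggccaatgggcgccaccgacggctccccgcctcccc

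This element began 129 and 66 bases before the Fos start, 106 before Junb, 69 and 40 before Nr4a1, and 115 and 61 before Areg, where the second copy lay in the full palindrome TGACGTCA. The CArG box of Zfp36 began 58 bases before the start. In the 300-base windows of the RefSeq table (250 bases before to 50 after a start), searched on both strands, the element was present in 30.2% of the 13177 promoters of tested genes. It was present in 31.6% of the 730 promoters of genes called higher in the IEG-high cells and in 30.7% of the 654 promoters of genes called lower, so these shares lay close to that of all tested genes. The CArG box was found in 1.28% of promoters of tested genes, 1.92% of those called higher and 2.14% of those called lower. Among genes changed by more than 0.5 on the log2 scale the shares lay further apart. The element was in 36.3% of 113 promoters of higher genes and 18.7% of 123 promoters of lower genes. The CArG box was in 6 (5.31%) and 0 (0%) of these promoters. They came from 81 of 125 higher and 97 of 127 lower genes, some with more than 1 start. The AP-1 site (TGANTCA) was found in 5.21% of promoters of tested genes, 5.34% of those called higher and 5.51% of those called lower. A match is a run of letters and not a measured binding site.

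The 4 genes together took 895, 805, 811 and 996 CPM in the 39 °C libraries, and 514, 450, 515 and 471 CPM at 37 °C. All 39 °C libraries lay above all 37 °C libraries (877 ± 89.4 against 488 ± 32.4 CPM, mean ± SD, n = 4 each), a 1.80-fold higher share (exact permutation test of the difference in means, two-sided, all 70 assignments, p = 0.0286, the smallest this design allows). Each of the 4 genes was higher at 39 °C with the same p (also 0.0286 after Benjamini-Hochberg adjustment over these 5 comparisons). Fos was 2.50-fold, Junb 2.38-fold, Egr1 1.57-fold and Ier2 1.27-fold higher. The AP-1 subunits had the highest ratios, and Fos gave few UMIs at either temperature (24.4 ± 2.38 CPM at 39 °C and 9.77 ± 2.99 at 37 °C).

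**Figure D1:**
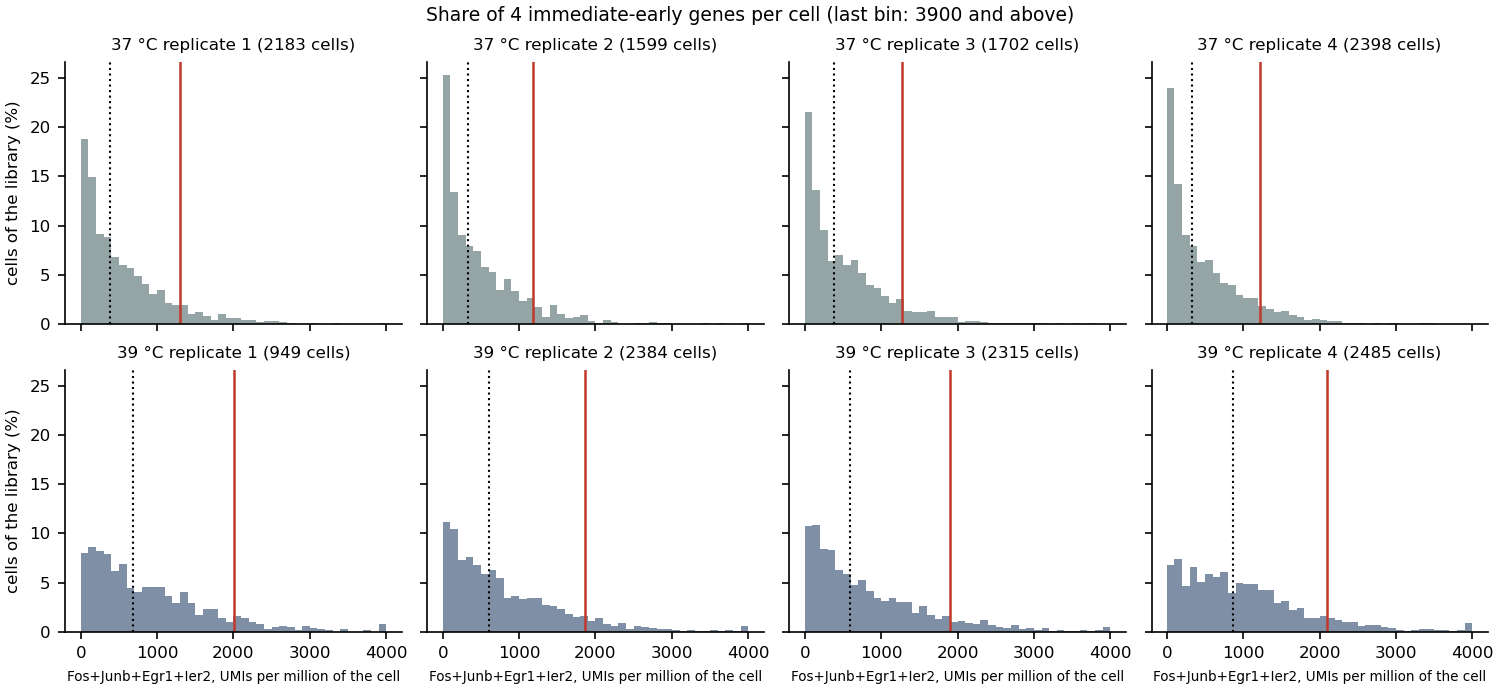
Distribution over cells of the share of UMIs from Fos, Junb, Egr1 and Ier2 (x axis, UMIs per 1000000 UMIs of the cell; y axis, percent of the library's cells) in each of the 8 libraries. The dotted line is the median cell and the red line the lowest IEG-high cell, which lay between 1858 and 2097 at 39 °C and between 1178 and 1306 at 37 °C. No gap or second peak is visible at either line.

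The IEG-high cells are a range cut from a score per cell, and the cut gives no cell type. The lowest member and the first cell outside it had 2012 and 1999 UMIs per 1000000 in replicate 1, 1858 and 1856 in replicate 2, 1898 and 1896 in replicate 3, and 2097 and 2094 in replicate 4. Summed over cells, the IEG-high cells had 2620, 2555, 2606 and 2780 CPM of the 4 genes and the IEG-low cells 323, 270, 260 and 414 CPM, which is how they were selected and is given with no test. The median member carried 20 to 41 UMIs of the 4 genes, depending on the library, and no member fewer than 10. Junb supplied 45.3 to 48.2% of these UMIs in the IEG-high cells of the 4 libraries, Egr1 29.2 to 31.2%, Ier2 18.8 to 22.0% and Fos 2.72 to 3.01%. In 372 of the 811 cells a single gene gave the majority of these UMIs.

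Whether the 4 genes rose together was tested by ranking the cells on 3 of them and measuring the fourth, which the ranking had not used. Each left-out gene was higher in the IEG-high cells of every library, with no overlap between IEG-high and IEG-low cells. Egr1 reached 671, 639, 625 and 619 CPM in the IEG-high cells of replicates 1 to 4 and 118, 106, 97.4 and 165 CPM in the IEG-low cells, a log2 fold change of 2.41 ± 0.040 (SE). Ier2 rose from 87.2 ± 22.7 to 416 ± 41.8 CPM (SD, n = 4; log2 fold change 2.28 ± 0.047) and Junb from 252 ± 41.1 to 926 ± 49.0 CPM (1.89 ± 0.036). For these 3 genes the adjusted p of edgeR's quasi-likelihood test was below the smallest number the software prints. Fos rose from 12.5 ± 2.61 to 63.9 ± 3.00 CPM (2.36 ± 0.10, adjusted p = 6.5e-117). Cells high in 3 of the genes were thus also higher in the other. How many members each gene decided differed: 772 of the 811 cells stayed in the top 10% when Fos was left out of the ranking, 668 without Ier2, 645 without Egr1 and 576 without Junb.

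The comparison with IEG-low cells was then made across all other genes. Counts were summed per library and group without the 4 score genes, and the 13813 genes averaging 1 count or more were tested in edgeR with the library as a block. Genes were called at a Benjamini-Hochberg adjusted p under 0.05 of its quasi-likelihood test. At this threshold 709 genes (5.13%) were higher and 644 (4.66%) lower. Most changes were small: 33 of the higher and 41 of the lower genes changed by more than 1 on the log2 scale. Whether called or not, 750 genes (5.43%) were higher and 915 (6.62%) lower with no overlap between the 2 groups of 4 sums. Without the block the calls were 329 and 164, and DESeq2 with the block called 365 and 166. Leaving out replicate 2 gave 418 and 352, and leaving out replicate 1 gave 547 and 406.

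Among called genes of at least 20 CPM in the higher group, the 3 largest rises were of transcription factors, Egr3, Nr4a1 and Atf3. Egr3, a zinc-finger factor related to Egr1, was at 58.9, 51.1, 55.3 and 36.0 CPM in the IEG-high cells and at 4.28, 3.92, 3.58 and 6.29 CPM in the IEG-low cells (log2 fold change 3.48 ± 0.13, adjusted p = 3.9e-151). Replicate 4 had the lowest level in IEG-high and the highest in IEG-low cells, and the groups did not overlap. Its relative Egr2 rose from a mean of 1.86 to 18.3 CPM (3.33 ± 0.21, adjusted p = 1.4e-52), the second largest change among the named genes. Nr4a1, an orphan nuclear receptor induced by many stimuli, was at 65.8, 62.6, 86.2 and 90.5 CPM against 12.8 to 19.3 CPM (2.32 ± 0.093, adjusted p = 4.6e-134). Atf3, a stress-induced member of the AP-1 and ATF family, was at 40.7, 76.4, 26.0 and 48.2 CPM against 11.2, 12.7, 11.8 and 16.1 CPM. Its libraries spread more than those of the other factors, with replicate 2 highest, and its log2 fold change was 1.86 ± 0.11 (adjusted p = 6.2e-61). Snai1, a transcriptional repressor of epithelial genes, was higher by 1.16 ± 0.14 (21.4 to 24.3 against 9.20 to 11.5 CPM).

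Of the 19 tested members of the list of immediate-early transcription factors, 12 were called higher and none lower (13 and 0 at an unadjusted p under 0.05 in edgeR, 8 and 0 with DESeq2), with a median log2 fold change of 0.57 beside -0.02 over all tested genes. Among AP-1 subunits other than Fos and Junb, 7 of 11 were called higher and none lower (median 0.22, with 8 and 0 at an unadjusted p under 0.05). Of all tested genes 5.13% were called higher and 4.66% lower. At an unadjusted p under 0.05 in edgeR, 2734 of all 13813 tested genes passed, in either direction. Fosb rose by 1.09 ± 0.18, Fosl1, which encodes Fra-1, by 0.83 ± 0.073 and Mafk by 0.53 ± 0.12. Mafk did not pass without replicate 2 (0.36) or ranked without Junb (0.26). Jun and Jund, named after their values were seen because Junb and Fos pair with them or replace them, were higher by only 0.22 ± 0.054 and 0.12 ± 0.029. Under 4 alternatives (DESeq2, no block, G1 cells only, ranking without Junb) 4 AP-1 subunits were called in place of 7.

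**Figure D2:**
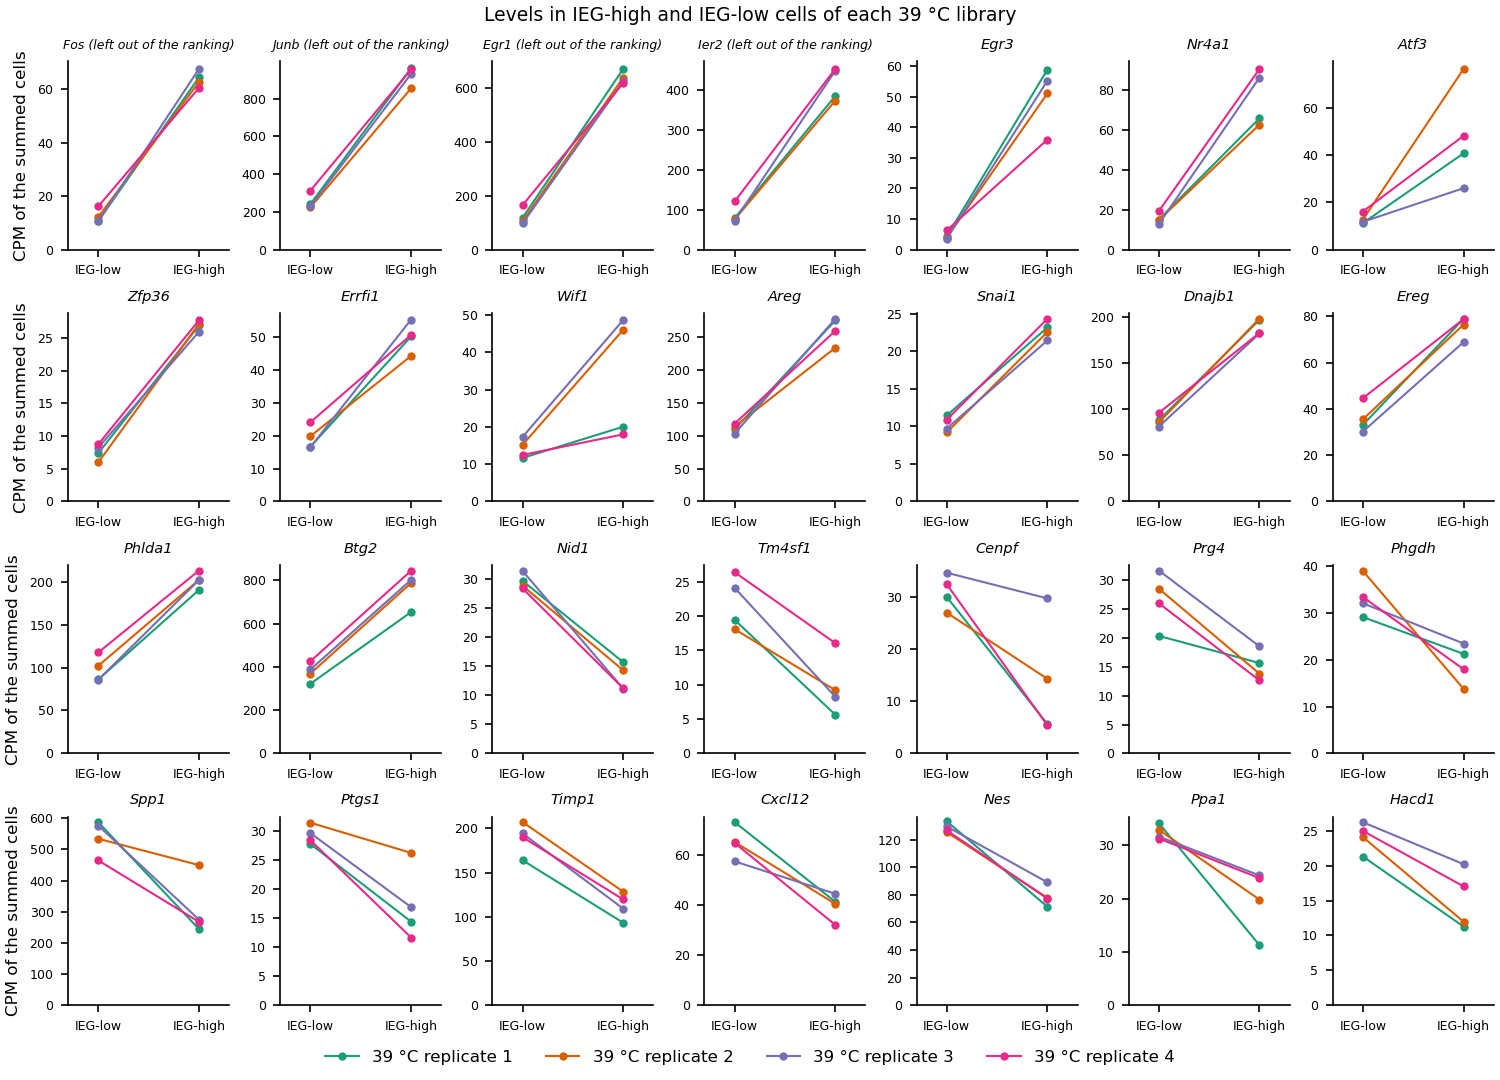
CPM of summed cells (y axes, from 0) in IEG-low and IEG-high cells of each 39 °C library, for the 4 score genes, each ranked on the other 3, and for the 12 largest rises and 12 largest falls. Each line is 1 library. All lines of the first 16 genes go up and all lines of the last 12 go down, with replicate 2 of Spp1 and replicate 3 of Cenpf falling least.

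Inhibitors that close the response made up the next group. Zfp36 (tristetraprolin), which binds AU-rich elements and speeds the decay of short-lived mRNAs, was at 26.9, 27.2, 26.0 and 27.7 CPM against at most 8.77 CPM (log2 fold change 1.82 ± 0.14, adjusted p = 1.3e-34). Errfi1, an inhibitor of the EGF receptor, was at 50.1, 44.2, 55.3 and 50.6 CPM against 16.7, 19.8, 16.5 and 24.1 CPM (1.38 ± 0.10). The libraries of both genes were close to each other and the groups did not overlap, a trait of 5.43% of tested genes in this direction. Dusp5, a nuclear phosphatase of ERK, rose by 0.99 ± 0.18 from a mean of 7.04 CPM, and Dusp2 by 1.25 ± 0.43 from 1.19 CPM (adjusted p = 0.041), a call lost in 14 of 23 alternatives. Of 18 tested genes of MAPK and mRNA decay feedback, 9 were higher and none lower (median 0.23, with 9 and 1 at an unadjusted p under 0.05). Over all tested genes 5.13% were called higher, and 2734 of 13813 had an unadjusted p under 0.05 in either direction.

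Ligands of the EGF receptor were higher as well. Areg (amphiregulin) was at 276, 234, 278 and 260 CPM in the IEG-high cells and at 110, 114, 103 and 119 CPM in the IEG-low cells (log2 fold change 1.23 ± 0.048, adjusted p = 3.8e-138). Ereg (epiregulin) was at 78.9, 76.4, 68.9 and 78.8 CPM against 33.1, 35.5, 30.2 and 44.6 CPM (1.08 ± 0.079). The groups of neither ligand overlapped. The list of delayed growth factor response genes, which holds both ligands, did not move one way. Of 17 tested members 4 were higher and 3 lower (median -0.04), the lower ones including Spp1 and Timp1. Over all tested genes 5.13% were higher and 4.66% lower.

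Among effectors, Btg2, an antiproliferative gene induced by p53 and by serum, was at 653, 788, 802 and 845 CPM in the IEG-high cells and at 322, 369, 388 and 426 CPM in the IEG-low cells (log2 fold change 1.04 ± 0.034, adjusted p = 3.3e-198). Phlda1, a pleckstrin-homology protein, was at 190, 202, 202 and 213 CPM against 86.2, 102, 85.9 and 118 CPM (1.05 ± 0.052). Ptgs2, the inducible cyclooxygenase, rose by 1.02 ± 0.064 from a mean of 58.1 to 118 CPM, whereas Ptgs1, the constitutive one, fell by 0.75 ± 0.13 on the log2 scale (14.4, 26.2, 16.9 and 11.7 against 27.8, 31.4, 29.6 and 28.4 CPM). Arc, best known from synapses, rose by 1.96 ± 0.44 at a low level (3.43 against 0.862 CPM). Of 21 tested immediate-early effectors 14 were higher and 3 lower (median 0.55), beside 5.13% and 4.66% of all tested genes. The lower ones were Gadd45b (log2 fold change -0.55 ± 0.096), Gadd45g (-0.31 ± 0.058) and Ctgf. Gadd45b and Gadd45g were named after their values were seen, to show the members that went the other way. Wif1, a secreted inhibitor of Wnt signalling that was on no list, rose by 1.24 ± 0.12. It fell into pairs of libraries, at 46.1 and 48.7 CPM in the IEG-high cells of replicates 2 and 3 and at no more than 20.05 CPM in those of replicates 1 and 4, and it did not pass when only the top 5% of cells were taken (0.52).

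Levels followed the rank of the cells. When all 39 °C cells were cut into deciles by the same share, Egr3 stood at 50.2 CPM in decile 1, 28.9 in decile 2, 12.4 in decile 5 and 2.27 in decile 10. Nr4a1 stood at 76.4, 58.2, 27.1 and 7.75 CPM in the same deciles and Btg2 at 772, 659, 471 and 341 CPM. From decile 1 to decile 2 Egr3, Atf3 and Zfp36 fell most among these genes, by a 1.74-fold step for Egr3 and Atf3 and a 1.75-fold step for Zfp36, beside 1.31-fold for Nr4a1 and 1.17-fold for Btg2. Atf3 stood at 47.8 and 27.6 CPM in these deciles and Zfp36 at 26.9 and 15.4 CPM. The deciles are given as a description.

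**Figure D3:**
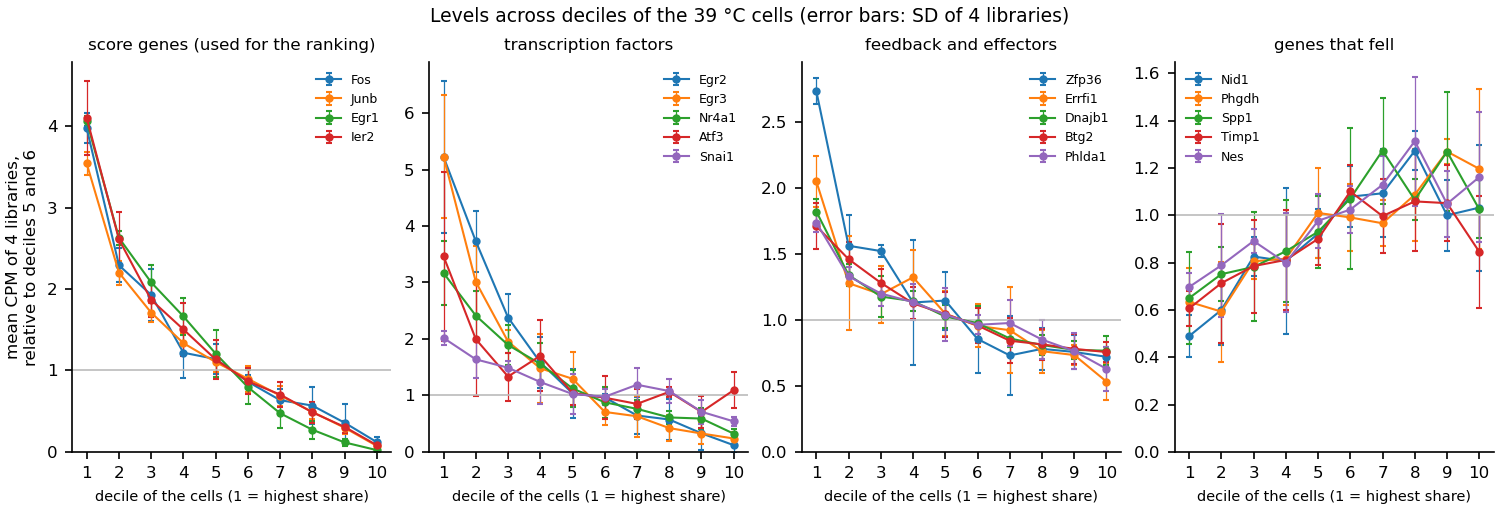
Mean CPM of 4 libraries in deciles of the 39 °C cells ranked by the 4-gene share (x axis, 1 is the highest), relative to the mean of deciles 5 and 6 (y axis, from 0); error bars are the SD of 4 libraries. The early genes fall from decile 1 towards decile 10, although Atf3 levels off from decile 5, while the genes of the right panel are lowest in deciles 1 and 2.

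Most tested targets of p53 were higher. Of 22 tested members 16 were called higher and none lower (0 also at an unadjusted p under 0.05 in edgeR and with DESeq2), beside 5.13% called higher of all tested genes, and their median log2 fold change was 0.22. Btg2 led, followed by Pmaip1 (0.66 ± 0.089) and Bbc3 (0.50 ± 0.078), which encode the apoptotic BH3-only proteins Noxa and Puma, and by the kinase Plk2 (0.46 ± 0.050). Cdkn1a and Mdm2, chosen after their values were seen because they are the most widely used p53 targets, were higher by 0.42 ± 0.024 (2778 against 2078 CPM) and 0.42 ± 0.028 (1440 against 1078 CPM). Without the block, or ranked without Junb, 10 of the 22 passed. Counted per cell, 19.3 ± 1.17% of the IEG-high cells also lay in the top 10% of their library by the summed share of 20 p53 targets (Btg2 and Plk2 left out), and 6.84 ± 0.765% of IEG-low cells did (SD, n = 4). The corresponding shares for the top 10% by Id1, Id2 and Id3 were 14.7 ± 3.06% and 7.73 ± 0.860%.

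Of the heat shock genes, Dnajb1 stood out. Dnajb1, a co-chaperone of Hsp70, was at 197, 198, 182 and 182 CPM in the IEG-high cells and at 87.8, 85.5, 81.1 and 96.0 CPM in the IEG-low cells (log2 fold change 1.12 ± 0.054, adjusted p = 1.0e-91). Of the 17 tested heat shock and chaperone genes, Dnajb1 and Cryab were higher and 6 were lower (median -0.07). Over all tested genes the shares were 5.13% and 4.66%. The mitochondrial chaperones Hspd1 and Hspe1 were lower by 0.41 and 0.20 on the log2 scale, and the inducible Hsp70 genes Hspa1a (0.23 ± 0.18) and Hspa1b (0.05 ± 0.11), named after their values were seen, did not pass. Without replicate 2, and with DESeq2, 2 heat shock genes were lower in place of 6, and 1 was without the block.

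Many cytoskeletal and matrix genes were lower in the IEG-high cells. None of 15 tested cytoskeletal targets of SRF and its cofactor MRTF was higher (0 also at an unadjusted p under 0.05 in edgeR and with DESeq2) and 10 were lower, beside 4.66% of all tested genes (median -0.25). Tagln, an actin-binding protein of contractile cells, was at 1.88, 1.84, 7.84 and 13.6 CPM against 6.37, 17.9, 13.4 and 14.9 CPM (log2 fold change -1.06 ± 0.19), with overlap between the groups, and it did not pass without replicate 2 (-0.57) or without the block, and was at -1.65 without replicate 4. Fhl2 fell by 0.45 on the log2 scale (-0.20, not passing, ranked without Junb) and Actg1, cytoplasmic gamma actin, by 0.39 (1199 against 1573 CPM). Acta2, smooth muscle actin, was at 3.13, 6.91, 30.5 and 60.3 CPM against 26.2, 35.8, 26.3 and 41.7 CPM, higher in 2 libraries and lower in 2. Its call (-0.33 ± 0.11, adjusted p = 0.028) held in 10 of 23 alternatives and its direction turned in 3, among them the fit without replicate 2 (0.05), and it lay between -0.98 and 0.05 over the libraries left out. Of 14 tested YAP and TEAD targets 3 were higher and 3 lower. Cyr61, which is also an immediate-early gene, rose by 0.98 ± 0.046, while Ctgf (log2 fold change -0.44 ± 0.12), Ankrd1 (-0.50 ± 0.075) and Amotl2 (-0.27 ± 0.068) were lower. Ctgf did not pass without replicate 4 (-0.19), without the block or against all other cells, and was at -0.67 without replicate 3. Amotl2 did not pass without replicate 3 (-0.20) or with DESeq2.

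Of 15 tested collagen and matrix genes 8 were lower and none higher (median -0.25, with 8 and 1 at an unadjusted p under 0.05). Over all tested genes 4.66% were called lower, and 2734 of 13813 had an unadjusted p under 0.05 in either direction. The 8 became 5 lower without replicate 2 or without replicate 4 and 3 without the block. Fn1 fell by 0.41 (219 against 292 CPM), Col1a2 by 0.39, Lox by 0.38 and Sparc by 0.28 (2238 against 2715 CPM). Lox did not pass in 5 of 24 alternatives, among them DESeq2, no block and the fit without replicate 4 (-0.19). The largest fall among called genes of at least 20 CPM in the higher group was that of Nid1, a basement membrane protein, at 15.7, 14.3, 11.1 and 11.2 CPM in the IEG-high cells and 29.6, 28.8, 31.3 and 28.3 CPM in the IEG-low cells (log2 fold change -1.20 ± 0.14, adjusted p = 4.3e-16). Timp1, an inhibitor of matrix metalloproteases, was at 93.3, 128, 109 and 120 CPM against 164, 207, 194 and 190 CPM (-0.75 ± 0.055). The secreted phosphoprotein Spp1 (osteopontin) was at 244, 449, 275 and 268 CPM against 587, 534, 576 and 464 CPM (-0.80 ± 0.039). Replicate 2 lay far above the other 3 in IEG-high cells, and without that library the change was -1.04. The SE of 0.039 thus understates the spread of Spp1 between libraries.

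Further falls were of surface and secreted proteins, enzymes and Nes. Tm4sf1, a surface protein, fell by 1.16 on the log2 scale (5.64 to 16.1 against 18.1 to 26.4 CPM) and did not pass when cells were ranked without Junb (-0.41). Prg4 (lubricin) fell by 0.83 (12.6 to 18.6 against 20.4 to 31.7 CPM) and did not pass when ranked without Egr1 (-0.27). Phgdh, the first enzyme of serine synthesis, fell by 0.81 and Psat1, the next enzyme of that path, by 0.67. The chemokine Cxcl12 fell by 0.70, the pyrophosphatase Ppa1 by 0.66 (-0.27, not passing, ranked without Junb) and Hacd1, an enzyme of fatty acid elongation, by 0.66. Nes, the neural precursor intermediate filament, was at 71.4, 77.8, 89.1 and 77.4 CPM against 133, 125, 130 and 127 CPM (-0.69 ± 0.063, adjusted p = 3.9e-25), without overlap, while Notch1 was higher by 0.40 ± 0.035. Among 9 tested neuronal genes, of 16 on the list, Celf5 alone passed (0.26 ± 0.049), and it did not when ranked without Junb (0.075). Of all tested genes 9.8% were called in either direction, so 1 of 9 is no trait of the list.

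**Figure D4:**
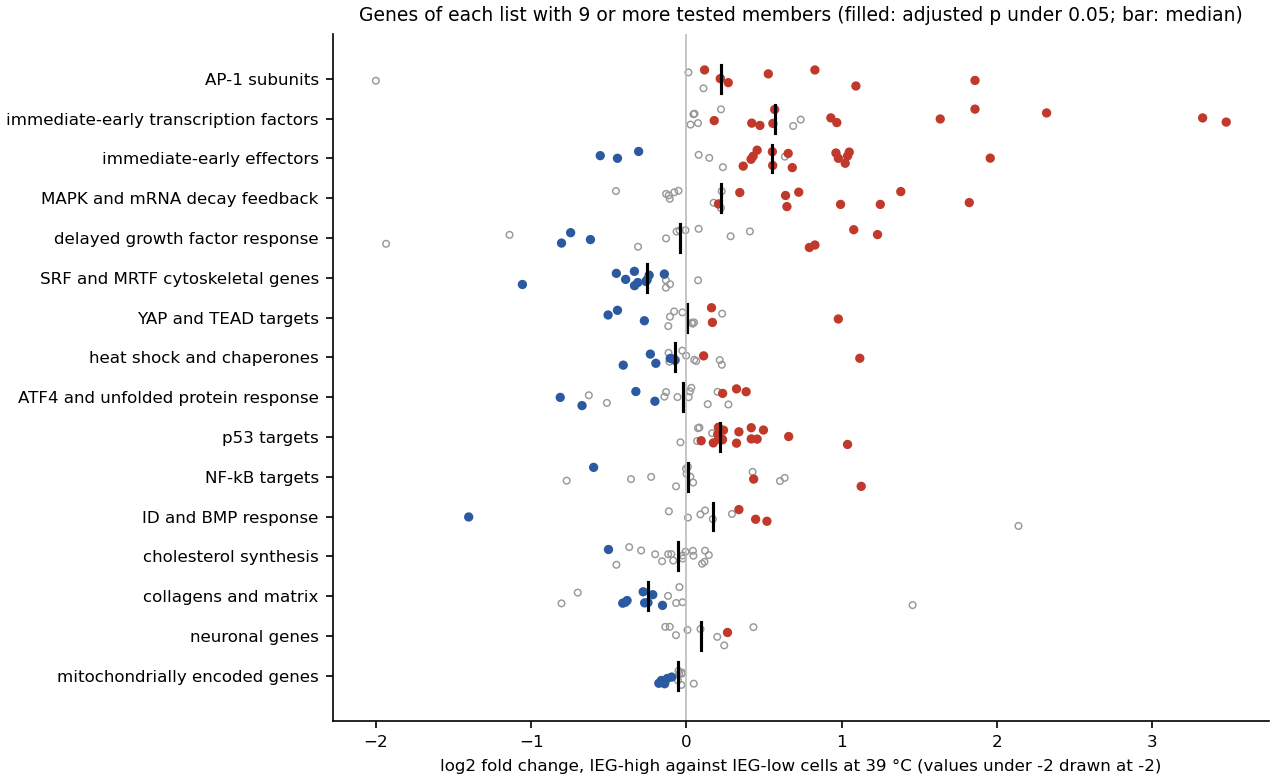
Log2 fold change of IEG-high against IEG-low cells at 39 °C (x axis) for each tested member of the 16 lists with 9 or more tested members, without the 4 score genes; filled points passed adjusted p under 0.05 (red higher, blue lower) and bars are medians. The medians of the AP-1, immediate-early, feedback and p53 lists lie to the right of 0 and those of the cytoskeletal and matrix lists to the left. The remaining lists have medians from -0.07 to 0.17, the highest being that of the ID and BMP response. Values under -2 are drawn at -2.

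The calls in the remaining lists are to be set beside 5.13% higher and 4.66% lower over all tested genes. Members were called in both directions among ATF4 and unfolded protein response genes (3 higher, 4 lower of 18), NF-kB targets (2 higher, 1 lower of 15) and ID and BMP response genes (3 higher, 1 lower of 11). In the first of these lists Ddit3 was higher by 0.39 ± 0.063 and Phgdh, Psat1 and Nupr1 were lower. The Nupr1 call (-0.33, adjusted p = 0.034) was lost in 10 of 23 alternatives, among them leaving out any 1 of the 4 libraries. Id1 was higher by 0.52 ± 0.034 (669 against 467 CPM), Id2 by 0.34 and Smad7 by 0.45, while the BMP antagonist Grem1 fell by 1.40 (0, 8.29, 14.4 and 3.41 against a mean of 19.6 CPM, and -2.26 without replicate 3). Cholesterol synthesis had 1 lower gene of 18, Sqle, whose call was lost without replicate 4 (-0.46). Of 6 tested nuclear long noncoding RNAs, Neat1 rose by 0.56 ± 0.027 (1701 against 1152 CPM) and Malat1 by 0.11 ± 0.015. Xist was lower by 0.11, a call lost without replicate 1 (-0.06) or replicate 2 (-0.07). Xist was at -0.18 without replicate 3, and its direction turned when cells were ranked without Junb (0.14).

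The IEG-high cells were slightly shallower than the IEG-low cells. Their median UMIs were 15728, 8419, 9650 and 7717 in replicates 1 to 4, against 17542, 9675, 10750 and 8277, so they were lower in all 4 libraries. Ranking after thinning every cell to 5000 UMIs kept 634 of the 811 members and called 709 genes higher and 670 lower. Taking both groups within quintiles of UMIs per cell, which brought the difference in medians from -1183 to -200.4 UMIs, called 718 and 629. At equal depth (5000 UMIs) the number of genes per cell differed by -1.25 ± 4.98 (SD). The mitochondrial share was lower in all 4 libraries (difference -0.288 ± 0.120 percentage points). Of 13 mitochondrially encoded genes 5 were called lower, beside 4.66% of all tested genes, and none higher, with mt-Nd1 lower by 0.18. With no block none of the 13 passed. The part of these shifts in the gene changes above was not tested further.

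Fewer of these cells were assigned to S phase in all 4 libraries. Phases were assigned with Seurat on cells thinned to 5000 UMIs, and S phase took 4.26, 6.72, 9.96 and 9.27% of IEG-high and 15.6, 12.5, 13.1 and 12.8% of IEG-low cells. G1 took 87.6 ± 2.55% against 82.5 ± 1.58%, higher in all 4 libraries, and G2M 4.80 ± 0.887% against 3.99 ± 1.01%, higher in 3. A two-sided exact sign-flip test over 4 libraries cannot go below p = 0.125, which S, G1, UMIs, genes and the mitochondrial share reached (0.175 adjusted over the 7 measures), and G2M gave 0.625. Among the Seurat S genes 16 of 42 tested were lower and 1 higher (median -0.28), with Uhrf1, a maintenance factor of DNA methylation, at 4.84 against 12.8 CPM. Of 52 tested G2M genes 11 were lower and 7 higher (median -0.10). Over all tested genes 4.66% were lower and 5.13% higher. Cenpf, a kinetochore protein, fell by 1.08 (5.64, 14.3, 29.7 and 5.35 against 30.0, 27.0, 34.6 and 32.4 CPM, with overlap between groups, and -1.76 without replicate 3), whereas Ckap2 rose by 0.66 and Cdc20 by 0.53, the latter without passing when replicate 2 was left out (0.30). Cells assigned to G1 alone gave 460 higher and 427 lower genes. In these cells Cenpf (-0.85, SE 0.38) and Uhrf1 (-0.64) did not pass.

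The early-response contrast was also present at 37 °C, where the same rule called 1217 of 14075 genes higher (8.65%) and 1683 lower (12%). Egr3, Egr2, Nr4a1, Atf3 and Zfp36 rose there by 3.87, 4.10, 2.59, 1.96 and 2.00 on the log2 scale. For none of these 5 did the difference between temperatures pass, and a difference could not be shown for any of the 19 immediate-early transcription factors or 11 AP-1 subunits tested in edgeR. Of all 13956 genes in this test only 525 (3.76%) passed, so lists this short cannot show that the rises were alike. At an unadjusted p under 0.05 the rise was smaller at 39 °C for 5 and larger for 1 of the transcription factors, and smaller for 1 AP-1 subunit. Of all 13956 genes 2004 had an unadjusted p under 0.05, in either direction. At 37 °C S phase took 27.2 ± 0.603% of IEG-high and 43.7 ± 2.38% of IEG-low cells, G1 37.4 ± 3.70% against 21.5 ± 2.31% and G2M 35.5 ± 3.65% against 34.9 ± 1.97%, higher in 2 libraries and lower in 2. Of Seurat's genes, 38 of 42 S and 45 of 52 G2M genes were lower in the IEG-high cells at 37 °C, where the G2M share of cells did not move one way. The p53 and cytoskeletal lists moved the same way at 37 °C. There 18 of 22 p53 targets were higher and none lower (median 0.35). Of 16 cytoskeletal targets of SRF and MRTF, 11 were lower and none higher (median -0.19). In G1 cells alone, 394 genes were higher and 470 lower at 37 °C.

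The difference of the contrast between temperatures was tested over 13956 genes. It was higher at 39 °C (a larger rise or a smaller fall than at 37 °C) for 223 genes (1.6%) and lower for 302 (2.16%). The split depended on scaling, with 316 and 268 genes under RLE factors and 115 and 486 with library totals only, and 20 and 43 genes passed without the block. The 5 largest differences among genes of at least 20 CPM all came from genes that rose less or fell at 39 °C. Prg4 rose by 0.81 ± 0.086 at 37 °C (50.3 against 28.7 CPM) and fell at 39 °C, a difference of -1.65 ± 0.15 (adjusted p = 3.8e-19). The secreted carboxypeptidase Cpz (difference -1.33 ± 0.25), the chemokine Ccl2 (-1.24 ± 0.14) and the lysophospholipase Enpp2, or autotaxin (-1.13 ± 0.17), rose by 1.11, 1.01 and 1.16 at 37 °C, and their changes at 39 °C (-0.21, -0.23 and 0.03) did not pass. Npr3, a natriuretic peptide receptor, differed by -1.14 ± 0.36 (adjusted p = 0.043). Npr3 did not pass in 11 of 16 alternatives, Enpp2 not in G1 cells and Ccl2 not without the block. The level of Ccl2 in 37 °C IEG-high cells spread widely between libraries (81.4 ± 61.4 CPM, SD, n = 4), with replicate 3 highest at 173 CPM.

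**Figure D5:**
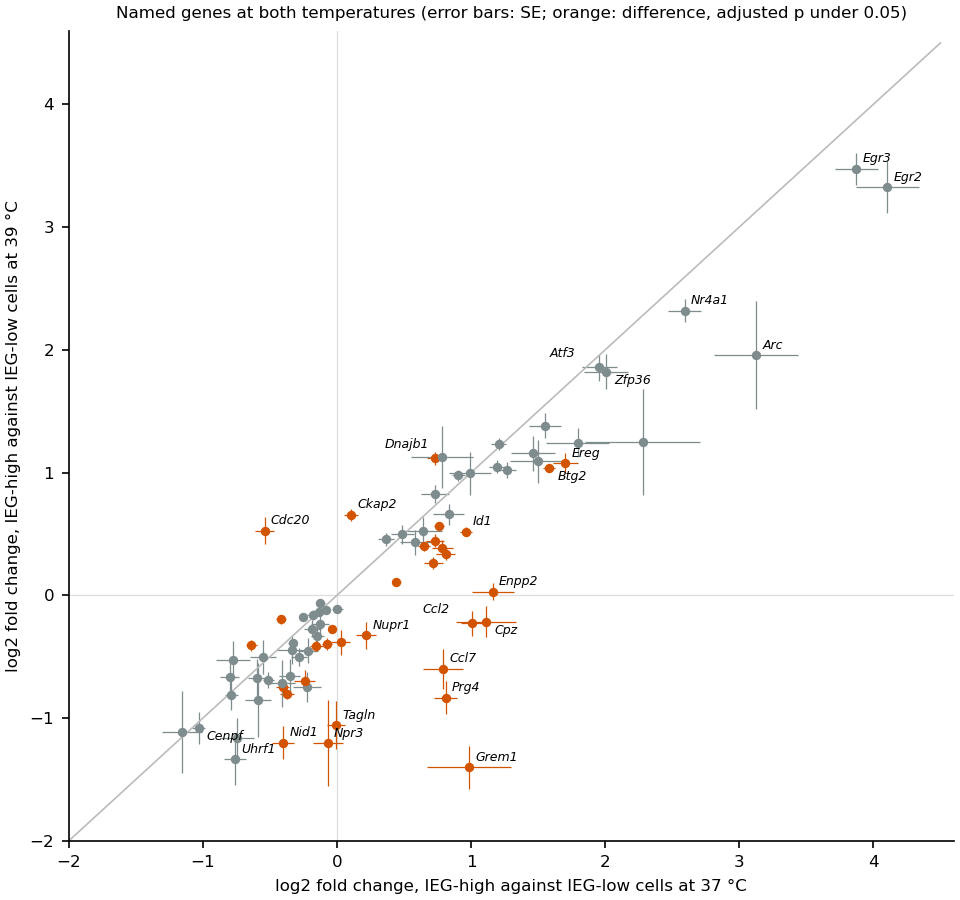
Log2 fold change of IEG-high against IEG-low cells at 37 °C (x axis) and 39 °C (y axis) for 82 named genes; error bars are SE, the line marks equal values and orange points passed the test of the difference between temperatures (32 genes). The early transcription factors lie near the line or somewhat below it, and Prg4, Ccl7, Ccl2, Cpz, Enpp2 and Grem1 lie far below it.

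By list, the difference was lower for 6 of 11 ID and BMP response genes and 7 of 15 matrix genes, and higher for none of either. Over all tested genes it was lower for 2.16% and higher for 1.6%. Id1, called higher at both temperatures, rose by 0.96 at 37 °C and by 0.45 less at 39 °C. Of 22 p53 targets 5 had a lower difference and none a higher one. Among them, Btg2 rose by 1.58 at 37 °C and its difference was -0.55 ± 0.058. Of the 12 largest rises, the difference between temperatures passed for Dnajb1, Ereg and Btg2, and it was positive for Dnajb1 (difference 0.38 ± 0.082, adjusted p = 0.00045). Of G2M genes 14 of 52 had a higher difference, Ckap2 (0.55) and Cdc20 (1.06) among them, and 4 of 42 S genes did. In G1 cells alone the differences numbered 78 higher and 101 lower.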

How the data were processed

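SN4741 cells were profiled with the Chromium 3′ kit (version 3) in 8 libraries, 4 at 37 °C and 4 at 39 °C. The deposited matrices hold UMI counts per gene and cell, made by the authors with Cell Ranger 3.0.1 on mm10 (submitters' processing notes), for 31053 genes. Groups came from the labels. Transcripts of the T antigen were not analysed here, the labels give no batch, and no doublet caller was run, so that only the upper limit of 6000 genes acted on doublets. The members and the 21 hand-written gene lists were chosen with earlier results of these data known, and several genes are on more than 1 list.

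Raw counts were summed per library and group and tested with edgeR 4.0.16 (quasi-likelihood, TMM factors, library as block, mean of at least 1 count per sum) in R 4.3.3, with Benjamini-Hochberg adjustment over all genes tested. CPM are edgeR's, without the 4 score genes, except where the score genes themselves are given. The scripts were tested on simulated data with the same spread set for every gene, which does not cover genes that vary widely between libraries. Both groups of a library come from the same culture and run, so the block pairs them by design. Deviations from group means correlated at 0.0551 to 0.246 within a library and at most 0.0395 between libraries (10380 genes). Phases came from Seurat 5.3.0. Python 3.11.15, scipy 1.17.1, numpy 2.4.6 and pandas 2.3.3 were used for exact tests and per-cell values, and DESeq2 1.42.0 as an alternative. Other alternatives changed the normalization, count filter, cell limits, share of cells taken, comparison group, depth, phase and score genes, or left out 1 library.

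The genes named are the 12 largest called rises and falls with at least 20 CPM in the higher group, up to 4 called members of each list with the largest change, and the 5 largest called differences between temperatures. Other genes are marked where they appear. Promoters and the capitals in them were read from RefSeq windows of GRCm38.p6, which had entries for 10312 of 13811 tested gene symbols.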

Additional observations from a re-analysis of the deposited data

Results flagged for a closer look

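Of 66 groups of 4 libraries, 2 had a value far from the other 3, where chance gives about 1 in 20. Spp1 in the IEG-high cells of 39 °C replicate 2 was at 449 CPM. The G2M share of 39 °C replicate 4 was lower in IEG-high than in IEG-low cells (difference -1.77 percentage points), while the other 3 libraries went the other way.

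The change from IEG-low to IEG-high cells differed between temperatures for 32 of 82 named genes tested (edgeR, adjusted p under 0.05), given here as the log2 fold change at 39 °C minus that at 37 °C. The difference was positive for 5 genes: Cdc20 (1.06), Ckap2 (0.55), Dnajb1 (0.38), Hspd1 (0.23) and Hspe1 (0.22). It was negative for 27. Among secreted and matrix proteins these were Grem1 (-2.47), Prg4 (-1.65), Ccl7 (-1.39), Cpz (-1.33), Ccl2 (-1.24), Enpp2 (-1.13), Nid1 (-0.80), Ereg (-0.63), Cxcl12 (-0.46), Spp1 (-0.44), Lox (-0.41), Timp1 (-0.35), Col1a2 (-0.32), Fn1 (-0.26) and Sparc (-0.24). Among regulators and stress genes they were Btg2 (-0.55), Nupr1 (-0.55), Id2 (-0.48), Celf5 (-0.46), Id1 (-0.45), Ddit3 (-0.40), Smad7 (-0.29) and Notch1 (-0.25). The others were Npr3 (-1.14), Tagln (-1.05), and the noncoding Malat1 (-0.34) and Neat1 (-0.20). Grem1 had no UMI in the IEG-high cells of 1 library at each temperature, and at 37 °C it was at 17.7 CPM in replicate 3 and at no more than 0.87 CPM in the others.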

How the results depend on the processing

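The 4 left-out score genes and the higher share of the 4 genes at 39 °C kept their call under every alternative run for them. Of the alternative fits of single named genes at 39 °C, 1682 kept call and direction, 153 (35 genes) no longer passed and 4 turned. The cause of the shifts was not tested. Depth limits genes of few UMIs in 39 °C replicate 1, which has 94 IEG-high cells.

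At 39 °C (709 genes higher, 644 lower) the calls were 365 and 166 with DESeq2, 411 and 420 against all other cells of the library, 460 and 427 in G1 cells, 329 and 164 with no replicate block, and 304 and 377 ranked without Junb. Ranked without Ier2, 1142 were higher. Leaving out 1 library gave 418 to 606 higher and 352 to 577 lower genes. At 37 °C (1217 and 1683) they were 670 and 792 with DESeq2, 394 and 470 in G1 cells, and 1761 and 1132 with library totals only. For the difference between temperatures (223 and 302), G1 cells gave 78 and 101, library totals only 115 and 486, RLE factors 316 and 268, and no replicate block 20 and 43. No filter on low counts gave 416 higher, ranking after thinning 115 higher, DESeq2 97 lower and quintiles of UMIs 180 lower. Leaving out 1 library gave 155 to 352 higher and 192 to 276 lower, with 352 without 37 °C replicate 3, 192 without 37 °C replicate 2 and 201 without 39 °C replicate 3.

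The difference in G2M share turned to -0.348 points ranked without Egr1. The difference in median genes was -325 ranked without Junb, -34.5 within quintiles of UMIs and -329 in the top 5%. At equal depth it turned to 0.75 ranked after thinning, 0 ranked without Fos, 1.88 without Junb and 1.75 within quintiles. The mitochondrial difference was -0.0597 points without Junb, and that in UMIs -200.4 within quintiles and -1759 in the top 5%. Acta2 turned to 0.0069 without Junb, 0.17 in the top 5% and 0.046 without 39 °C replicate 2 (-0.98 to 0.046 over the libraries left out), and Xist to 0.14 without Junb.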
